A study of Homo sapiens with 6 samples.

Results

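The class I PI3K genes described here encode the catalytic subunits, regulatory subunits and adaptors of class I phosphoinositide 3-kinase. They were taken as the entries of the count table with the symbols PIK3CA, PIK3CB, PIK3CD, PIK3CG, PIK3R1, PIK3R2, PIK3R3, PIK3R5, PIK3AP1 and PIK3IP1. All 10 symbols were found among the 65746 symbols kept. Repeats of a symbol had been left out before, so whether a member had a second entry was not checked. RNA was sequenced from SU-DHL-8 cells, a wild-type human line established from a diffuse large B-cell lymphoma, in 3 libraries treated with 100 nM erianin and 3 libraries treated with DMSO, the solvent control, for 24 h each. Erianin is a bibenzyl natural product of Dendrobium orchids. All libraries thus come from 1 cell line with no genetic change recorded, and the labels do not say whether replicates were separate cultures. The p-values therefore reflect variation among these 6 libraries alone, part of which may be technical.

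Class I PI3K phosphorylates the membrane lipid PIP2 to PIP3, which recruits AKT, BTK and other proteins with PIP3-binding domains. Class IA enzymes pair a p110 catalytic subunit with a p85-type regulatory subunit that stabilises the enzyme, holds it inactive and docks it to phosphotyrosine motifs. Class IB pairs p110gamma with PIK3R5 or PIK3R6 and responds to G protein-coupled receptors. In B cells p110delta, encoded by PIK3CD, carries much of the signal of the antigen receptor, and PIK3AP1, also called BCAP, provides docking motifs for the p85 subunits. The series title names the PI3K/AKT pathway, and the comparison asks whether transcripts of the enzyme itself differed after erianin.

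The promoter windows of the 4 members on which the results turn are shown first, because PIK3AP1 and PIK3R3 were called higher with erianin, and PIK3R1 and PIK3CD were called once DMSO replicate 1 was left out. Each runs 5′ to 3′ from 250 bases before to 50 bases after the RefSeq start nearest to the gene start in GENCODE 29 (GRCh38.p14). Capitals mark any of 6 motifs searched on both strands, namely the CCAAT box itself, the GC box GGGCGG, the AP-1 motif TGANTCA, the FOXO-type GTAAACA, the E-box CACGTG and the ETS-type CCGGAAG. No motif here contains another.
PIK3AP1, chr10:96720465-96720764, minus strand: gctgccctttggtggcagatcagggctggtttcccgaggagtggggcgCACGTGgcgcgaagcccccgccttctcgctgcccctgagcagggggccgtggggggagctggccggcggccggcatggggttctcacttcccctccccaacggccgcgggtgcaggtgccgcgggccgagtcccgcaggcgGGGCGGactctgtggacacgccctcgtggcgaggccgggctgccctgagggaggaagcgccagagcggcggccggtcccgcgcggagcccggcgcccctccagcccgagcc
PIK3R3, chr1:46132987-46133286, minus strand: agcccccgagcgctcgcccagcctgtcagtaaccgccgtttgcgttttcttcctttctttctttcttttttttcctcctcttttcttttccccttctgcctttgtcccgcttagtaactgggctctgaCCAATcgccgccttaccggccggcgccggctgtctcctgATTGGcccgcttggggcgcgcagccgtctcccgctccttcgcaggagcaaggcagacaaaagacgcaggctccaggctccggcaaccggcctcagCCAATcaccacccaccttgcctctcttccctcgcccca
PIK3R1, chr5:68215506-68215805, plus strand: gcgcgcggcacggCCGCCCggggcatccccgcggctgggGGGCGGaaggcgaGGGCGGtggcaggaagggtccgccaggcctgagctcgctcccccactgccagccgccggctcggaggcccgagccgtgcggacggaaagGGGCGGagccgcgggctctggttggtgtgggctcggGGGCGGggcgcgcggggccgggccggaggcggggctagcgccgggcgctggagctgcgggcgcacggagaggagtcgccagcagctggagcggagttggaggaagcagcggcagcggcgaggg
PIK3CD, chr1:9651481-9651780, plus strand: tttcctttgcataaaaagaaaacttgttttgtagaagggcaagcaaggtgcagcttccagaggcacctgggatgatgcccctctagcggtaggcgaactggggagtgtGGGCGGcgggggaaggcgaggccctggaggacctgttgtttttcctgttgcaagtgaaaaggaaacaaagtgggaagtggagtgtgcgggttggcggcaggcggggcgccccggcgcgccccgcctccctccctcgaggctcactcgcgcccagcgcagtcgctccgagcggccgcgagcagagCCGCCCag

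The letters below are those of the starts shown and not of every start of these genes. PIK3R3 held 3 CCAAT boxes and no GGGCGG, PIK3R1 held 5 GGGCGG, PIK3CD held 2 GGGCGG, and PIK3AP1 held 1 GGGCGG and 1 CACGTG. Over all 35116 promoter windows of the same length, 34.6% held CCAAT, 45.0% GGGCGG and 7.26% CACGTG. The FOXO-type GTAAACA, present in 3.42% of all windows, was in none of these 4 but occurred once in the window of PIK3CA and once in 1 of the 2 windows of PIK3IP1. TGANTCA, the AP-1 motif, was in none of the 23 windows of the 10 members and in 7.71% of all windows. Of the 10 members, 6 had more than 1 annotated start, with 6 for PIK3R3, 4 for PIK3R1 and 3 for PIK3CD. The other windows of PIK3R3 held 0 to 2 CCAAT and 0 to 2 GGGCGG, and another PIK3CD window held 5 GGGCGG. Counts per gene do not separate these starts.

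Total counts were 32844464 to 35307027 in erianin libraries and 30956443 to 35588728 in DMSO libraries, so the floor of 3 counts lay at 0.084 to 0.097 CPM (counts relative to library size, with TMM factors for values per library), covering counting error only. DMSO replicate 1 was unlike the rest. Paired with DMSO replicates 2 and 3 it gave biological coefficients of variation of 0.292 and 0.295, whereas erianin pairs gave 0.0336 to 0.0815 and DMSO replicates 2 and 3 gave 0.0380 with each other. Its deposited TPM (a length-scaled relative level) summed to 39.2% of a full library's total, against 63.6% to 65.2% in erianin libraries and 65.7% and 66.7% in DMSO replicates 2 and 3. Member folds and list counts are therefore also given without it. B cell markers summed to 2286 to 2559 CPM in erianin libraries and 2703 to 3729 CPM in DMSO libraries, and 1 of the 6 genes rose and 2 fell. T cell markers summed to at most 0.185 CPM, with CD3G and CD2 at 0, and epithelial markers to at most 0.154 CPM, with EPCAM and KRT19 at 0. The 5 myeloid markers, none of them at 0 in all libraries, summed to 9.74 to 11.35 CPM in erianin libraries and 4.57 to 7.70 CPM in DMSO libraries, and 2 of the 4 tested rose. CD14 had 57, 54 and 56 counts in erianin replicates 1, 2 and 3, against 0, 2 and 9 in DMSO replicates 1, 2 and 3. CSF1R had 20, 16 and 11 counts, against 3, 5 and 4, so both lay near the floor with DMSO. LYZ and MPO were not called (adjusted p = 0.176 and 0.405 by edgeR). Over all tested genes, 11.8% rose and 12.3% fell.

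**Figure D1:**
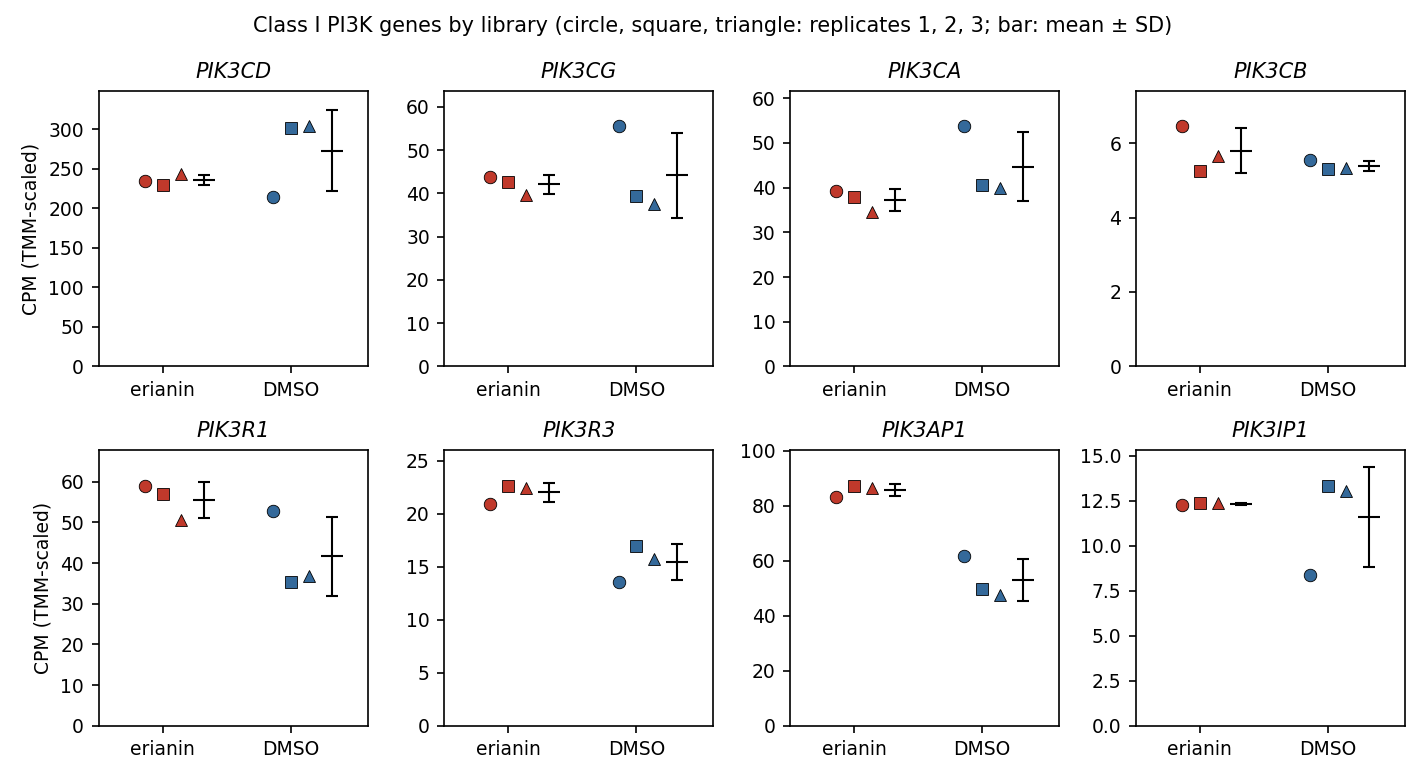
Level of the 8 tested members in each library, in CPM with TMM factors on a linear axis from 0, with erianin left of DMSO; circles, squares and triangles are replicates 1, 2 and 3, and bars are the mean ± SD (n = 3). PIK3AP1 and PIK3R3 were higher in all 3 erianin libraries than in any DMSO library, and the circle of DMSO replicate 1 lay away from the other DMSO libraries for PIK3CD, PIK3CG, PIK3CA, PIK3R1, PIK3AP1 and PIK3IP1.

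Of the 10 members, 8 passed edgeR's filter on low counts and were tested, and each of these had at least 169 counts in every library. PIK3AP1 and PIK3R3 rose and 0 of the 8 fell, also by DESeq2 and limma-voom, and at an unadjusted p under 0.05 by edgeR 3 were higher and 0 lower. Over all 11550 genes tested, 11.8% were called higher and 12.3% lower with erianin, so 2 calls among 8 genes are near that background. The median log2 fold change was 0.097 over the 8 tested members and -0.0033 over all tested genes. Without DMSO replicate 1, PIK3AP1, PIK3R3 and PIK3R1 were higher and PIK3CD was lower, where 27.8% of tested genes were called higher and 27.4% lower. Of the members, 0 were called by edgeR without erianin replicate 1 or without erianin replicate 2, where 6.65% and 6.36% of tested genes were called; 2 members were higher at an unadjusted p under 0.05 in each, and other tools were not run on these subsets. PIK3AP1 alone was called without erianin replicate 3 (background 10.3%) and without DMSO replicate 3 (16.9%), and both PIK3AP1 and PIK3R3 without DMSO replicate 2 (15.2%). In bulk RNA, fewer cells of a type and less RNA per cell cannot be told apart.

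PIK3AP1 (chromosome 10, 96593312 to 96720514, minus strand), the cytoplasmic adaptor that brings PI3K to the B cell receptor complex and to Toll-like receptors, showed the largest change among the 8 tested members. It had 83.4, 87.3 and 86.4 CPM in erianin replicates 1, 2 and 3, against 61.6, 49.6 and 47.4 CPM in DMSO replicates 1, 2 and 3. The groups did not overlap, a separation found upwards in 23.6% of all tested genes, and DMSO replicate 1 was nearest to the erianin libraries. The log2 fold change was 0.70 ± 0.13 (SE), or 1.62-fold, with an adjusted p of 0.0094 by edgeR's quasi-likelihood test over all tested genes. Without DMSO replicate 1 it was 0.83 ± 0.071 (adjusted p = 4.5e-10). The call was lost without erianin replicate 1 (adjusted p = 0.051) or erianin replicate 2 (adjusted p = 0.057), although the log2 fold change stayed at 0.73 and 0.695. Myeloid markers, whose summed level was higher in the erianin libraries, stayed at or under 11.35 CPM, and their part in this result was not tested.

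The class IA regulatory subunits were measured through PIK3R1 and PIK3R3. PIK3R3 (chromosome 1, 46040140 to 46133036, minus strand) encodes the short regulatory subunit p55gamma. It had 20.9, 22.7 and 22.5 CPM in erianin replicates 1, 2 and 3, against 13.6, 16.9 and 15.7 CPM in DMSO replicates 1, 2 and 3. All 3 erianin libraries were above all DMSO libraries, and here DMSO replicate 1 was the lowest. PIK3R3 rose by 0.51 ± 0.12 on the log2 scale, or 1.43-fold (adjusted p = 0.024), and by 0.44 ± 0.094 without DMSO replicate 1 (adjusted p = 0.00027). Its call was lost on leaving out DMSO replicate 3 (adjusted p = 0.061), erianin replicate 1, 2 or 3 (adjusted p = 0.080, 0.104 and 0.082) and on both log2(TPM + pseudocount) scales (adjusted p = 0.082 and 0.098). The log2 fold change was 0.498 to 0.560 in those 4 subsets, and 0.62 and 0.77 on the TPM scales. In GENCODE 29, 1292 of its 7410 exonic bases are shared on the same strand with the readthrough gene listed as P3R3URF-PIK3R3, which is at 0 in all 6 libraries. Reads on those bases may have been split, merged or left out in counting.

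PIK3R1 (chromosome 5, 68215720 to 68301821, plus strand) encodes p85alpha and its shorter forms. It had 59.0, 57.0 and 50.6 CPM in erianin replicates 1, 2 and 3, against 52.9, 35.4 and 36.9 CPM in DMSO replicates 1, 2 and 3. DMSO replicate 1 lay among the erianin libraries, and the other DMSO libraries lay below all of them. The log2 fold change of 0.41 ± 0.17 did not pass the test (adjusted p = 0.12). Without DMSO replicate 1, PIK3R1 was higher with erianin by 0.63 ± 0.081 on the log2 scale (adjusted p = 3.8e-07), and offsets for GC content and gene length with all 6 libraries, which called 36.1% of tested genes, also gave a call (0.49, adjusted p = 0.0033). The log2(TPM + pseudocount) scales, with pseudocounts of 1 and 0.1 and limma, called 14.5% and 13.1% of tested genes and PIK3R1 among them (adjusted p = 0.021 and 0.022). On these scales its log2 fold changes were 0.63 and 0.70, while the median of all genes lay at 0.20 and 0.28. The genes whose centred log2 CPM was most like that of PIK3R1 over the 6 libraries were ZBTB33, NLGN3 and BTBD7, with root mean square differences of 0.025, 0.031 and 0.033.

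PIK3R2, which encodes p85beta, could not be judged. The entry kept for it carries the Ensembl identifier ENSG00000268173, whereas GENCODE 29 lists PIK3R2 as ENSG00000105647. GENCODE 29 gives the identifier of the entry to AC007192.1, which shares 3947 of the 4524 exonic bases of PIK3R2 (chromosome 19, 18153118 to 18170540, plus strand). Whether a repeat of the symbol that was left out carried the other identifier was not checked. The entry had 1 count in erianin replicate 3 and 0 in the other 5 libraries. This was not read as absence of PIK3R2 transcripts, since reads that fall on overlapping genes may have been left out.

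Among the catalytic subunits PIK3CD had the highest level per gene length in all 6 libraries. PIK3CD (chromosome 1, 9651732 to 9729114, plus strand), which shares 89 exonic bases with CLSTN1 on the opposite strand, ranked 720 of 11550 tested genes by mean CPM. It had 234, 229.7 and 243 CPM in erianin replicates 1, 2 and 3, against 214, 302 and 303 CPM in DMSO replicates 1, 2 and 3. The groups overlapped through DMSO replicate 1, which was the lowest of all 6 libraries, while DMSO replicates 2 and 3 were above every erianin library. The log2 fold change was -0.21 ± 0.15 (adjusted p = 0.34). Without DMSO replicate 1, PIK3CD fell with erianin by 0.35 on the log2 scale (SE 0.058, adjusted p = 1.7e-05). NUP85, UBAC2 and CCM2 were most like it over the 6 libraries, with root mean square differences of 0.024, 0.025 and 0.027.

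PIK3CA (chromosome 3, 179148114 to 179240093, plus strand), which encodes the ubiquitous p110alpha, had 39.3, 38.0 and 34.6 CPM in erianin replicates 1, 2 and 3, against 53.7, 40.5 and 39.9 CPM in DMSO replicates 1, 2 and 3. All erianin libraries were below all DMSO libraries, as in 23.1% of tested genes, but erianin replicate 1 lay close to DMSO replicate 3. PIK3CA had a log2 fold change of -0.26 ± 0.14 (adjusted p = 0.23), and of -0.096 without DMSO replicate 1 (adjusted p = 0.32). PIK3CA was called lower only with the offsets for GC content and gene length (-0.24, adjusted p = 0.034) among the settings run. KCNMB3, on the opposite strand, shares 3403 of the 9494 exonic bases of PIK3CA in GENCODE 29 and had 13.1 ± 1.16 CPM with erianin and 20.4 ± 2.02 CPM with DMSO, so reads of these genes cannot be told apart if counting ignored strand.

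PIK3CG (chromosome 7, 106865278 to 106907145, plus strand), the class IB catalytic gene, had 43.9, 42.8 and 39.7 CPM in erianin replicates 1, 2 and 3, against 55.5, 39.3 and 37.7 CPM in DMSO replicates 1, 2 and 3. The log2 fold change was -0.068 ± 0.16 (adjusted p = 0.80), and it was 0.14 ± 0.079 without DMSO replicate 1 (adjusted p = 0.13). PIK3CB (chromosome 3, 138652699 to 138834938, minus strand), which encodes p110beta, had 5.79 ± 0.604 CPM with erianin and 5.39 ± 0.139 CPM with DMSO (SD, n = 3 each; log2 fold change 0.10 ± 0.14, adjusted p = 0.64 by edgeR). PIK3CB had a log2 fold change of 0.14 ± 0.15 without DMSO replicate 1 (adjusted p = 0.46). Both genes overlapped between groups and neither was called in any setting run.

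The p110gamma partner PIK3R5 was barely detected. PIK3R5, which encodes p101, had 5, 6 and 4 counts in erianin replicates 1, 2 and 3, against 7, 2 and 2 counts in DMSO replicates 1, 2 and 3, and was not tested. Summed over the group this was 0.147 CPM with erianin (95% exact Poisson interval 0.0821 to 0.242) and 0.109 CPM with DMSO (0.0545 to 0.195), intervals that overlap and cover counting error only. The log2 ratio of PIK3R5 to PIK3CG on the TPM scale was -9.60 ± 0.259 with erianin and -10.2 ± 0.811 with DMSO (SD, n = 3 each; two-sided exact permutation p = 0.4). PIK3R6, the other class IB regulatory gene, had 2 counts with erianin and 0 with DMSO, where 3 counts would equal 0.0298 CPM. The entry kept for PIK3R6 carries an identifier other than that in GENCODE 29, so its level was not read as absence.

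PIK3IP1 (chromosome 22, 31281593 to 31292534, minus strand) encodes a transmembrane protein that binds p110 and restrains the enzyme. It had 12.3, 12.4 and 12.4 CPM in erianin replicates 1, 2 and 3, against 8.38, 13.3 and 13.1 CPM in DMSO replicates 1, 2 and 3. The erianin libraries were above DMSO replicate 1 and below DMSO replicates 2 and 3. The log2 fold change of 0.091 ± 0.19 (adjusted p = 0.76) turned to -0.083 ± 0.10 without DMSO replicate 1 (adjusted p = 0.52).

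**Figure D2:**
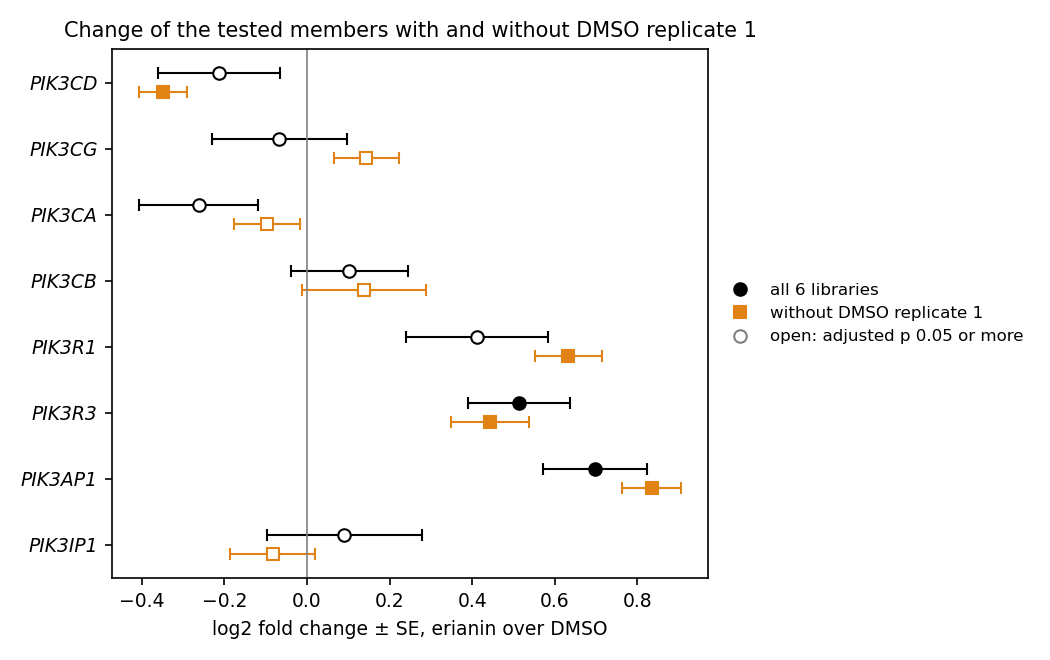
Log2 fold change (erianin over DMSO) with its SE for the 8 tested members, from all 6 libraries (black circles) and without DMSO replicate 1 (orange squares); filled symbols have an adjusted p under 0.05 by edgeR. PIK3AP1 and PIK3R3 are filled in both fits, PIK3R1 (0.63) and PIK3CD (-0.35) only without DMSO replicate 1.

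Levels of different genes were compared on the deposited TPM scale, which divides by gene length. In the erianin libraries PIK3CD averaged 50.2 ± 1.03 TPM, followed by PIK3AP1 at 37.3 ± 1.30 TPM, PIK3CG at 14.1 ± 0.780 TPM and PIK3CA at 13.2 ± 0.906 TPM (SD, n = 3). Then came PIK3R1 at 9.94 ± 0.818 TPM, PIK3IP1 at 5.34 ± 0.0888 TPM, PIK3R3 at 5.18 ± 0.268 TPM and PIK3CB at 0.975 ± 0.0918 TPM. In the DMSO libraries PIK3CD averaged 50.5 ± 19.2 TPM, PIK3AP1 19.0 ± 2.08 TPM, PIK3CA 13.0 ± 1.04 TPM and PIK3CG 12.1 ± 0.525 TPM. The remaining DMSO levels were 6.08 ± 0.208 TPM for PIK3R1, 4.39 ± 1.85 TPM for PIK3IP1, 3.11 ± 0.983 TPM for PIK3R3 and 0.764 ± 0.158 TPM for PIK3CB. These DMSO means and SDs include the different TPM scaling of DMSO replicate 1, so the SDs are not replicate spread alone. In CPM the DMSO libraries had 41.7 ± 9.71 for PIK3R1 and 273 ± 51.1 for PIK3CD. The neighbours PIK3CG and PIK3CA were close, with PIK3CG above PIK3CA in all 3 erianin libraries and below it in all 3 DMSO libraries. PIK3IP1 lay above PIK3R3 in all 6 libraries. TPM levels of different libraries are not set against each other in this paragraph, because DMSO replicate 1 was scaled differently. The fits on log2(TPM + pseudocount) do compare libraries, so their calls and lost calls carry that scaling.

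The share of each isoform in the summed TPM of its class is free of that scaling. PIK3CD made up 62.7%, 63.1% and 66.1% of the 4 catalytic genes in erianin replicates 1, 2 and 3, against 54.2%, 69.4% and 70.1% in DMSO replicates 1, 2 and 3. The difference of -0.57 percentage points did not exceed the spread (two-sided exact permutation p = 1), and without DMSO replicate 1 it was -5.73 percentage points. PIK3CG took 18.5%, 18.5% and 17.0% in erianin replicates 1, 2 and 3, against 22.1%, 14.2% and 13.7% in DMSO replicates 1, 2 and 3 (exact permutation p = 0.8). PIK3CA took 17.4%, 17.3% and 15.6% in erianin replicates 1, 2 and 3, against 22.6%, 15.5% and 15.3% in DMSO replicates 1, 2 and 3 (exact permutation p = 1). For all 3 of these genes DMSO replicate 1 lay outside the range of the other 5 libraries. PIK3CB made up 1.24% ± 0.113 with erianin and 1.02% ± 0.0834 with DMSO (SD, n = 3 each). On the deposited scale its erianin shares were all above its DMSO shares (exact permutation p = 0.1, the smallest that 3 against 3 allow). Adjusted by Benjamini-Hochberg over the 9 shares and ratios tested, this p was 0.45. Of single tested genes, 23.6% separated upwards in CPM. With counts not scaled by length, or with lengths from GENCODE 29, erianin replicate 2 lay below DMSO replicate 1 (exact permutation p = 0.2 for each). PIK3CA and PIK3CG were close on the deposited scale, whereas counts over the union of exons in GENCODE 29 put PIK3CA at 7.10% to 11.4% and PIK3CG at 10.7% to 18.9% of the catalytic sum over the 6 libraries. Their order therefore depends on the length used.

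The balance of class IA regulatory to catalytic transcripts separated the groups, but with 3 against 3 no ratio could pass the adjusted test. Summed TPM of PIK3R1 and PIK3R3 was 0.239, 0.245 and 0.221 of the summed TPM of PIK3CA, PIK3CB and PIK3CD in erianin replicates 1, 2 and 3, against 0.193, 0.130 and 0.129 in DMSO replicates 1, 2 and 3. The log2 ratio below also includes the PIK3R2 entry, which was at most 0.0116 TPM. Every erianin library was above every DMSO library, and DMSO replicate 1 was the nearest. Of single tested genes, 23.6% separated upwards and 23.1% downwards in CPM. On the log2 scale the ratio was -2.09 ± 0.0774 with erianin and -2.76 ± 0.333 with DMSO, a difference of 0.67 (two-sided exact permutation p = 0.1, the smallest that 3 against 3 allow). Adjusted by Benjamini-Hochberg over the 9 shares and ratios tested it was 0.45, and without DMSO replicate 1 the difference was 0.86. Within the regulatory sum, PIK3R1 made up 65.7% ± 2.55 with erianin and 66.7% ± 7.07 with DMSO, with PIK3R3 as nearly all of the rest (exact permutation p = 0.9, n = 3 each). Since the PIK3R2 entry cannot be read as PIK3R2, p85beta is missing from this sum, these shares and the ratio.

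**Figure D3:**
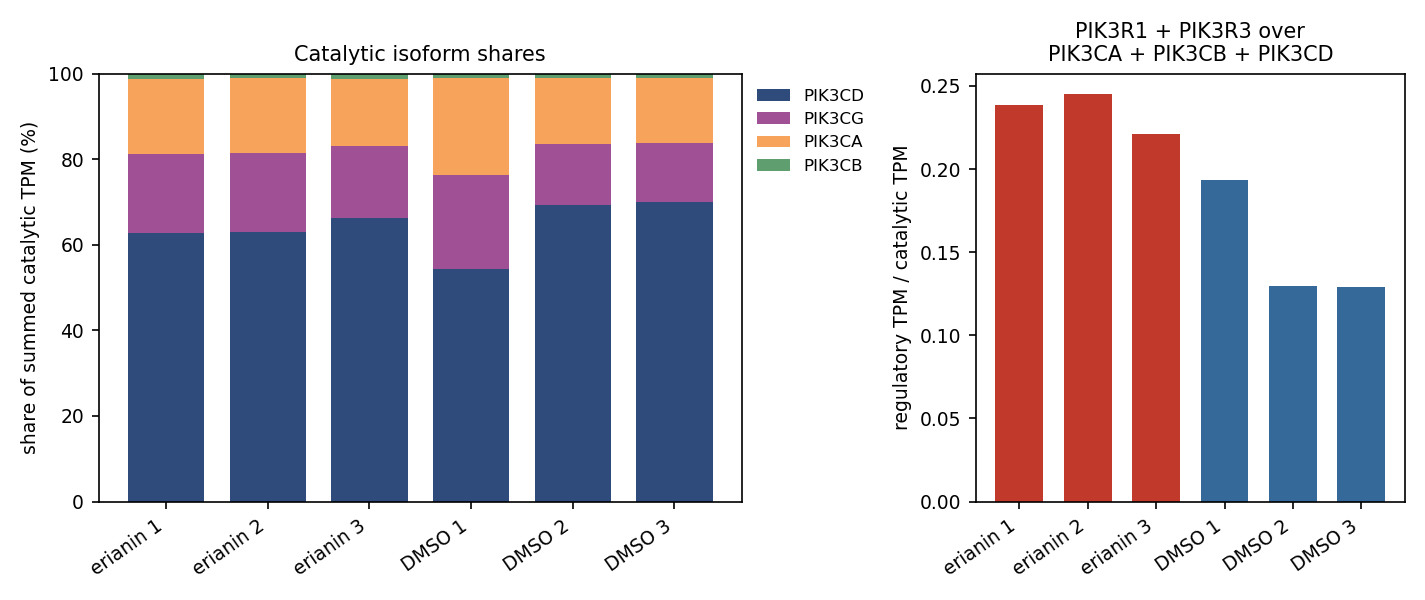
Left, share (%) of PIK3CD, PIK3CG, PIK3CA and PIK3CB in their summed deposited TPM in each library, erianin before DMSO; right, summed TPM of PIK3R1 and PIK3R3 over that of PIK3CA, PIK3CB and PIK3CD, with 1 bar a library. PIK3CD held 54.2% to 70.1% throughout, and the 3 erianin ratios (0.221 to 0.245) lay above the 3 DMSO ratios (0.129 to 0.193).

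Genes around the class I enzyme were followed in 5 lists by role, 76 genes in all, of which 64 were tested, 3 rose and 20 fell. Over all tested genes, 24.2% were called in either direction, 11.8% higher and 12.3% lower. Without DMSO replicate 1 the same lists held 11 higher and 28 lower genes. There 55.3% of tested genes were called, 27.8% higher and 27.4% lower. Leaving out any other single library left 0 to 3 higher and 5 to 14 lower, with the fewest lower without erianin replicate 1. Of all tested genes, 3.67% were called higher and 2.98% lower without erianin replicate 1, and 3.48% and 2.89% without erianin replicate 2. Those shares were 5.28% and 4.97% without erianin replicate 3, 6.91% and 8.34% without DMSO replicate 2, and 7.44% and 9.42% without DMSO replicate 3. OCRL, PLEKHA1 and PIP4K2B were listed at 0 in all 6 libraries, which was not read as absence.

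Of 18 tested receptors and adaptors upstream of PI3K, 1 rose and 6 fell, with a median log2 fold change of -0.24. Over all tested genes, 11.8% were called higher and 12.3% lower. The list held 2 higher and 6 lower genes with a median of -0.049 without DMSO replicate 1 (27.8% and 27.4% of all tested genes). It held 0 higher and 2 lower genes by edgeR without erianin replicate 1 or 2, where 1 was higher and 6 were lower at an unadjusted p under 0.05. GAB2, a scaffold that docks p85, fell to 39.0, 40.2 and 41.6 CPM in erianin replicates 1, 2 and 3, against 151, 108 and 102 CPM in DMSO replicates 1, 2 and 3 (log2 fold change -1.58, adjusted p = 0.0019; -1.37 without DMSO replicate 1). CBLB, an E3 ubiquitin ligase that restrains antigen receptor signalling, fell to 31.1, 31.0 and 31.0 CPM, against 139, 68.3 and 65.2 CPM in DMSO replicates 1, 2 and 3 (-1.55, adjusted p = 0.011), and its log2 fold change was -1.09 without DMSO replicate 1. The adaptor gene NCK2 (-0.80, adjusted p = 0.0055) and the receptor gene IGF1R (-0.62, adjusted p = 0.013) fell as well. The call of CBLB was lost whichever 1 erianin library was left out (adjusted p = 0.059 to 0.060) and that of IGF1R without erianin replicate 1 or 2 (adjusted p = 0.077 and 0.080).

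Of 12 tested phosphatases that remove PI3K products or related lipids, 0 rose and 4 fell by edgeR, by DESeq2, by limma-voom and at an unadjusted p under 0.05 (median log2 fold change -0.13). By edgeR 11.8% of all tested genes were called higher and 12.3% lower. The list held 1 higher and 5 lower genes without DMSO replicate 1 (27.8% and 27.4% of all tested genes), with a median of -0.074. By edgeR 0 were called without erianin replicate 1 and 1 was lower without erianin replicate 2, with 4 lower at an unadjusted p under 0.05 in each. INPP5D encodes SHIP1, which converts PIP3 to PI(3,4)P2 in blood cells. It fell to 275, 283 and 294 CPM in erianin replicates 1, 2 and 3, against 387, 411 and 408 CPM in DMSO replicates 1, 2 and 3 (log2 fold change -0.50, adjusted p = 0.0095). INPP5K (-0.70, adjusted p = 0.0082), SYNJ2 (-0.70, adjusted p = 0.017) and INPP5B (-0.44, adjusted p = 0.023) also fell. The calls of INPP5D and INPP5K were lost without erianin replicate 1 (adjusted p = 0.074 and 0.059) or 2 (adjusted p = 0.071 and 0.0545), and that of SYNJ2 without erianin replicate 1 or 3 (adjusted p = 0.086 and 0.071). INPP5B lost its call on leaving out each erianin library or DMSO replicate 2 or 3 in turn (adjusted p = 0.0535 to 0.112) and with total counts alone (adjusted p = 0.073).

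Of 19 tested PIP3 effectors, 0 rose and 8 fell by edgeR (median log2 fold change -0.34), beside 11.8% and 12.3% of all tested genes. DESeq2, which called 31.5% of all genes, called 1 higher and 10 lower, limma-voom (23.9% of all genes) 0 higher and 7 lower, and at an unadjusted p under 0.05 edgeR had 1 higher and 11 lower. CYTH3, a PIP3-binding exchange factor for ARF GTPases, fell to 5.71, 5.32 and 5.57 CPM in erianin replicates 1, 2 and 3, against 13.4, 12.5 and 12.9 CPM in DMSO replicates 1, 2 and 3 (log2 fold change -1.22, adjusted p = 0.0016). Its relative CYTH1 (-0.54, adjusted p = 0.0075), the PI(3,4)P2-binding adaptor gene PLEKHA2 (-0.77, adjusted p = 0.0028) and the RAC exchange factor gene TIAM1 (-0.69, adjusted p = 0.0049) fell as well. The call of CYTH1 was lost without erianin replicate 1 or 2 (adjusted p = 0.065 and 0.058), and those of CYTH3, PLEKHA2 and TIAM1 were kept whichever 1 library was left out. Without DMSO replicate 1 the list held 3 higher and 13 lower genes, where 27.8% of all tested genes were higher and 27.4% lower. Without each other library it held 3 to 5 lower genes, and 1 higher without DMSO replicate 2. Over all tested genes, 2.89% to 9.42% were called lower in these subsets, and 6.91% higher without DMSO replicate 2.

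Among the other PI3K genes, PIK3R4, the regulatory subunit of the class III enzyme, rose to 69.9 ± 0.416 CPM with erianin, against 48.3 ± 1.78 CPM with DMSO (SD, n = 3 each; edgeR log2 fold change 0.53, adjusted p = 0.0083). It was the single gene called of the 6 tested in this list (median log2 fold change 0.16), beside 11.8% of all tested genes higher and 12.3% lower. Without DMSO replicate 1, 4 of the list were higher, as were 27.8% of all tested genes. In this list 0 were called without erianin replicate 1 or 2 (1 and 2 higher at an unadjusted p under 0.05 by edgeR). The call of PIK3R4 was thus lost without erianin replicate 1 or 2 (adjusted p = 0.056 and 0.057). Of 9 tested kinases that supply the PIP2 substrate, 1 rose and 2 fell (median log2 fold change -0.15). This list of kinases held 1 higher and 4 lower genes without DMSO replicate 1 (27.8% and 27.4% of all tested genes). By edgeR 0 were called without erianin replicate 1 or 2, with 1 higher and 1 lower at an unadjusted p under 0.05. PIP4K2C rose by 0.53 on the log2 scale (adjusted p = 0.011), with 52.5 ± 1.55 CPM with erianin and 36.4 ± 2.19 CPM with DMSO, but leaving out erianin replicate 1 or 2 ended its call (adjusted p = 0.059 and 0.068). PIP4K2A (-0.59, adjusted p = 0.043) and PI4KA (-0.30, adjusted p = 0.0445) fell, and neither was called with any 1 erianin library left out (adjusted p = 0.092 to 0.21) or without DMSO replicate 2 (adjusted p = 0.058 and 0.130). PI4KA was also not called without DMSO replicate 3 (adjusted p = 0.11), and PIP4K2A changed by -0.36 without DMSO replicate 1.

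**Figure D4:**
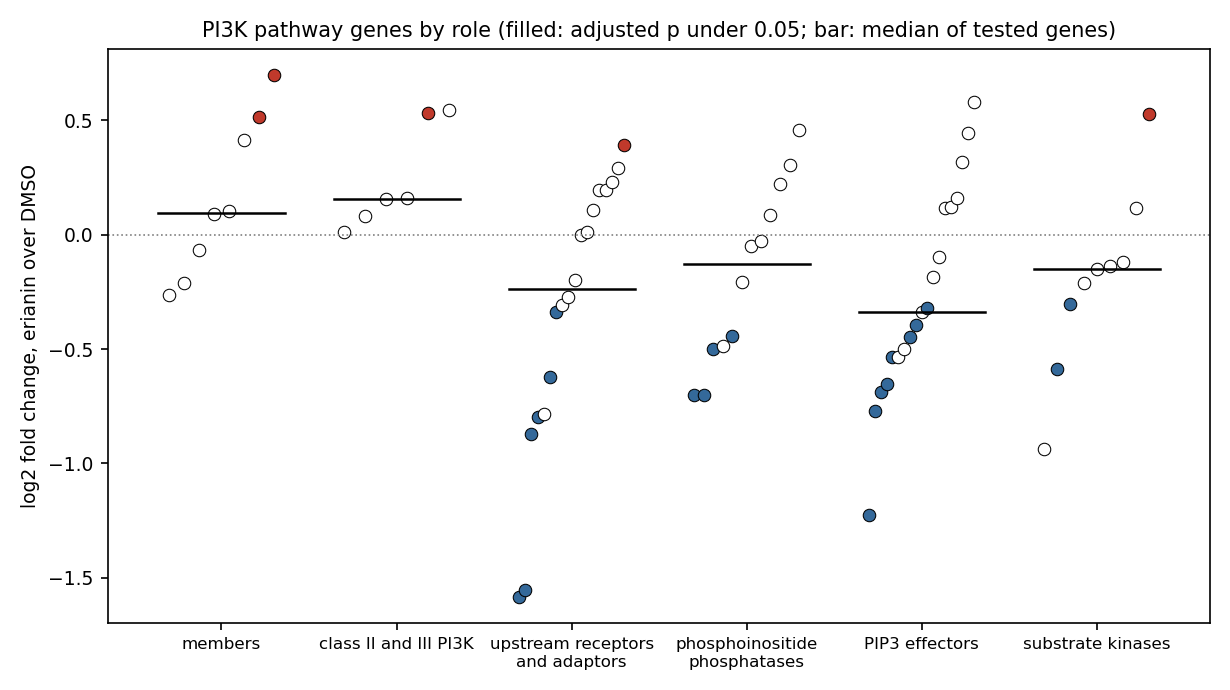
Log2 fold change (erianin over DMSO, all 6 libraries) of the tested genes of each role; each point is a gene, sorted by value, filled red where called higher and blue where called lower at an adjusted p under 0.05 by edgeR, and lines are medians over tested genes. Blue points number 0 of 8 members, 0 of 6 class II and III genes, 6 of 18 upstream genes, 4 of 12 phosphatases, 8 of 19 effectors and 2 of 9 substrate kinases, beside 12.3% of all tested genes; differences between lists were not tested.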

How the data were processed

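The deposited files hold, for each gene and library, raw counts and the authors' TPM (scaled by gene length). Tools in the submitters' processing notes were featureCounts 2.0.1, StringTie 2.2.1, STAR 2.7.10 and fastp 0.23.2, and the build GRCh38 (hg38), with no roles. For strand, read pairs, ambiguous reads and the annotation release, the answer is not given in the sources used here. Of 65807 entries per table, 61 repeats of a symbol were left out, and 7 symbols of the TPM table, which differed, were taken from the count table in the same order. Coordinates and exons are from GENCODE release 29, promoters from RefSeq (GRCh38.p14, all 10 members matched).

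Counts were tested with edgeR 4.0.16 (R 4.3.3; quasi-likelihood, TMM factors, filterByExpr, treatment as the single term), with Benjamini-Hochberg adjustment over all tested genes at 0.05. SE was taken as |log2 fold change| divided by √F. Shares and ratios were compared by two-sided exact permutation (scipy 1.17.1). Alternatives used DESeq2 1.42.0, limma 3.58.1 and mgcv 1.9.3 (98.7% of tested genes had GC content and length); genes without an adjusted p in DESeq2 stayed out. The fits were also run on simulated data with planted changes, in which no library was made to differ as DMSO replicate 1 did. How the fits perform with such a library was not tested.

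The members and lists were chosen with earlier results of these data known. Named genes were the members, PIK3R6, INPP5D, up to 4 called genes of smallest p per list, and 3 nearest patterns for PIK3CD and PIK3R1. Some genes fixed by name are not reported here. KCNMB3, CLSTN1 and genes at 0 were added after their values were seen. The labels share replicate numbers, and same-numbered libraries deviated together with correlations of 0.167, -0.143 and 0.231. Those with unlike numbers had correlations of -0.291 to 0.248. Deviations within a group of 3 are not independent, so these values can neither show nor exclude pairing. The main fit did not treat the libraries as pairs.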

Additional observations from a re-analysis of the deposited data

How the results depend on the processing

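Low counts limited what could be said of PIK3R5. The PIK3R6 and PIK3R2 entries were also low in counts and carried identifiers other than those in GENCODE 29. The 8 tested members had at least 169 counts in every library. The cause of the changes below was not tested. Over all genes, calls numbered 1368 higher and 1423 lower, with 407 to 3278 higher and 338 to 3227 lower when 1 library was left out. Members called ran from 0 to 3 higher and 0 to 1 lower, and genes of the 5 lists from 0 to 11 higher and 5 to 28 lower, with 1 library left out. With the replicate block, 1139 genes were higher and 1157 lower over all genes, 2 members were higher and 14 list genes lower; of the genes named, it ended the calls of INPP5B (adjusted p = 0.053) and PI4KA (adjusted p = 0.13).

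Calls lower over all genes were 918 with total counts alone (beside 1840 higher), 2395 with GC content and length offsets (beside 1722 higher), 262 on the log2(TPM + 1) scale (beside 1408 higher) and 245 on the log2(TPM + 0.1) scale (beside 1263 higher). Upper-quartile scaling gave 1763 higher and 1093 lower. The median log2 fold change of all genes, -0.0033 with TMM, was 0.11 with total counts, 0.20 and 0.28 on the TPM scales and 0.082 with the upper quartile. List genes called lower were then 12 with upper-quartile scaling, 11 with total counts and 3 on each TPM scale, and those called higher 5 by DESeq2 and 6 with the offsets, which also called 1 member lower, PIK3CA. The calls of PIK3R3, INPP5D, INPP5K, INPP5B, SYNJ2, NCK2, IGF1R, PLEKHA2, TIAM1, CYTH1, PIP4K2C, PIP4K2A and PI4KA were lost on both TPM scales, and PIP4K2A and PI4KA also with upper-quartile scaling and total counts, PI4KA without a filter.

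The genes below changed direction, and none of them was called by edgeR with all 6 libraries and TMM factors. They were PIK3CA (0.021 and 0.023) and PIK3CD (0.075 and 0.078) on the TPM scales, PIK3CG with the upper quartile (0.022), total counts (0.039), TPM (0.21 and 0.225) and without DMSO replicate 1 (0.14), and PIK3IP1 without DMSO replicate 1 (-0.083). The median of all genes lay at 0.20 and 0.28 on the TPM scales, and PIK3CA and PIK3CD were below it there, as with TMM factors. That median was 0.082 with the upper quartile and 0.11 with total counts, and PIK3CG was below it in each. With 1 library left out, the difference in share (percentage points) ran from -2.22 to 1.42 for PIK3CA, 0.165 to 0.276 for PIK3CB, -5.73 to 2.19 for PIK3CD, -0.174 to 4.04 for PIK3CG, -3.74 to 2.93 for PIK3R1, 0 to 0.0407 for the entry listed as PIK3R2, which cannot be read as that gene, and -2.96 to 3.71 for PIK3R3, reversing without DMSO replicate 1 for PIK3CA (1.42), PIK3R1 (2.93) and PIK3R3 (-2.96), without DMSO replicate 2, DMSO replicate 3 or erianin replicate 1 for PIK3CD (1.84, 2.19 and 0.063), without DMSO replicate 3 for PIK3CG (-0.174) and without erianin replicate 3 for PIK3R1 and PIK3R3 (0.204 and -0.204). The class IA log2 ratio kept its direction (0.567 to 0.858; 0.651 to 0.655 with other lengths), as did the class IB ratio (0.378 to 1.08). Lengths from GENCODE 29 were chosen after seeing the data.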
